A study of Mus musculus with 18 samples.

Results

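The genes described here build chondroitin sulfate, the sulfated sugar chain that cartilage proteoglycans carry. They are Ugdh, Slc26a2, Papss2, Xylt1, Xylt2, Csgalnact1, Chsy1, Chpf, Chst11 and Chst3, and they were taken by symbol from an RNA sequencing table of mouse cells, where each of the 10 symbols matched 1 of the 46983 genes listed. Values are FPKM (sequenced fragments per kilobase, scaled by library), so that levels of different genes can be set side by side per length. The cells were lipochondrocytes, the fat-storing cells of the ear cartilage plate, at postnatal days 8, 10, 13, 21 and 33 (P8 to P33), and adipocytes of inguinal fat at P33, with 3 libraries in each of the 6 groups. All mice carried Wnt1-Cre2 and TdTomato on a C57BL/6 background, the adipocyte donors included. Wnt1-Cre2 acts in neural crest, so TdTomato marks cells of that origin. Cells of the first 3 stages had been sorted by flow cytometry for high TdTomato. The later lipochondrocytes (P21 and P33) and all adipocytes were instead taken, without a sort, as the layer that floats after centrifugation. The labels do not say whether libraries came from separate or pooled animals, so p-values measure the spread between these libraries, which may be technical.

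Chondroitin sulfate chains are assembled in the Golgi on serines of a core protein. Xylosyltransferases add the first sugar, further enzymes complete a linker and commit it to chondroitin, a polymerase adds alternating glucuronic acid and N-acetylgalactosamine, and sulfotransferases place sulfate on chosen carbons. The chain depends on UDP-glucuronic acid, made by Ugdh, and on activated sulfate (PAPS), made by Papss2 from sulfate that Slc26a2 brings into the cell. Loss of SLC26A2, PAPSS2, CHST3 or XYLT1 function in humans causes skeletal dysplasia, and aggrecan, the main carrier of these chains in cartilage, binds water through their charge.

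Cartilage identity was checked first. The summed level of 8 cartilage markers was 9860 to 11480 FPKM at P8, 9101 to 11340 at P10, 9400 to 11290 at P13, 3650 to 4035 at P21 and 1829 to 2860 at P33, against 0.89 to 1.46 in adipocytes. Of these markers Matn1 was listed at 0 at P21, P33 and in adipocytes, and Acan and Col9a1 were listed at 0 in adipocytes. The summed level of 8 adipocyte markers never exceeded 26.42 FPKM in a lipochondrocyte library, against 90030 to 95810 FPKM in adipocytes, and Lep was listed at 0 in all lipochondrocyte libraries. Total reads ran from 12461965 to 27640142 per library. Mitochondrial genes took 23.34% to 25.45% of FPKM in adipocytes and 3.67% to 5.96% in lipochondrocytes. Member calls that another scaling of the libraries changed are marked where they occur. List and marker counts are marked where the median-of-ratios scaling described below changed them. Of the P33 libraries, replicate 3 stood apart on the third principal component (3.7% of the variance), at -31.64 against 44.22 and 30.34 for replicates 1 and 2. Its summed level of 10 fibroblast and perichondrium markers was 9278 FPKM, against 6079 and 5140 in replicates 1 and 2, and values without it are given where it changes a call.

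Papss2 and Ugdh gave the widest range over the stages, and the bases before their start sites are shown for that reason. They come from RefSeq (GRCm38.p6), read 5′ to 3′ on the strand of the gene, and leave out transcribed bases. Papss2 has 2 annotated starts, and the windows before them are chr19:32595465-32595714 and chr19:32619755-32620004, both on the plus strand. The Ugdh window is chr5:65435950-65436092 on the minus strand, cut to 143 bases where the annotation places an exon. Capitals mark matches, on either strand, to 3 short motifs, and none of these matches overlapped another. The letters searched were GGGCGG for the GC box, a motif of many promoters. For Sox factors, which include the main regulators of chondrocytes, the search used AACAAT, one form of what they bind. The TATA box was searched as TATAAA.
Papss2, first start: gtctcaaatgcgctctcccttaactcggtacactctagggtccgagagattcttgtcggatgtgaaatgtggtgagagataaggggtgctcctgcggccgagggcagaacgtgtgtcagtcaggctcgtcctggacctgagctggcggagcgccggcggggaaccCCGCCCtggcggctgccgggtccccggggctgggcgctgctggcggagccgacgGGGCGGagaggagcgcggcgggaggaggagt
Papss2, second start: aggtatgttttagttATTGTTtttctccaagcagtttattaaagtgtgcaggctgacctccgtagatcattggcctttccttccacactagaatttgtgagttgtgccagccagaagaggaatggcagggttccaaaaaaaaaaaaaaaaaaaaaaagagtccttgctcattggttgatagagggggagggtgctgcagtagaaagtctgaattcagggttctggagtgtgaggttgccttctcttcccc
Ugdh: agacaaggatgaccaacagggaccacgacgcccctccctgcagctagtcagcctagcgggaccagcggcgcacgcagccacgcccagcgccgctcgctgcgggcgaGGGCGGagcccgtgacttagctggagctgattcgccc
The first Papss2 window held 2 GC boxes and neither other motif. The second held 1 Sox-type match and no GC box. The printed Ugdh window held 1 GC box, and the full 250 bases held 2. Over 32851 RefSeq promoter windows of 250 bases, 32.7% held a GC box, 9.42% the Sox-type letters and 12.4% the TATA letters. RefSeq windows were matched for 7 of the 10 genes, and the GC box was the only one of the 3 motifs in the windows of Xylt2 (3 matches), Chsy1 (2), Chpf (1), Chst3 (1) and Chst11 (3). A match is a description of letters, and binding was not measured.

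**Figure D1:**
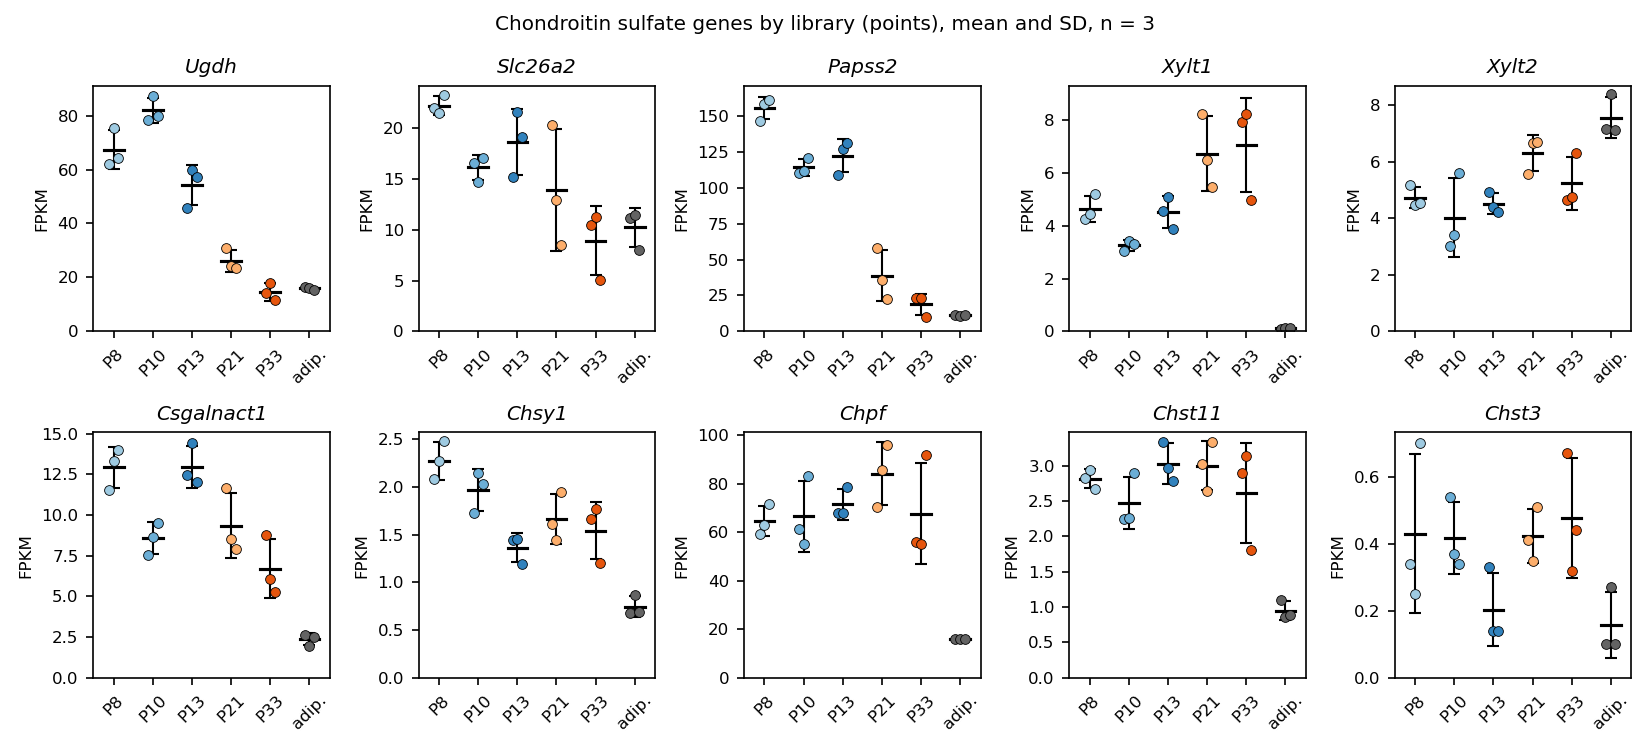
FPKM of the 10 genes (y axes, linear and separate for each gene) in the 5 lipochondrocyte stages and in adipocytes (adip.). Points are libraries, horizontal bars the mean and whiskers the SD of 3 libraries; Papss2 stood at 156 at P8 and 18.7 at P33, and Xylt1 was near 0 in adipocytes alone.

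Ugdh, which oxidises UDP-glucose to UDP-glucuronic acid, was high at the sorted stages and low at P33. It stood at 62.2, 75.6 and 64.3 FPKM in the P8 libraries, 78.6, 87.2 and 80.1 at P10, 45.8, 59.8 and 57.2 at P13, 30.8, 24.2 and 23.6 at P21, and 14.1, 17.96 and 11.6 at P33, with 16.3, 16.1 and 15.3 in adipocytes. P10 was the highest group and P33 spread to both sides of the adipocyte values. The stage means stood in the order P10, P8, P13, P21, P33. Neighbouring stages did not overlap in any of the steps from P8 to P33. The share of all genes separated in these steps is not given here. The difference of P10 from P8 was not called (0.28, limma adjusted p = 2.31e-01).

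Papss2, the synthase that turns sulfate and ATP into PAPS and the main form of that enzyme in cartilage, had the largest range of all members over the stages, 3.08 between the highest and lowest stage mean on the log2 scale, against 2.44 for Ugdh and 1.29 for Slc26a2. Its libraries gave 147, 159 and 161 FPKM at P8, 110, 112 and 121 at P10, 109, 127 and 131 at P13, 57.7, 35.7 and 22.4 at P21, and 23.2, 23.0 and 9.91 at P33, with 11.4, 10.95 and 11.3 in adipocytes. Every sorted library lay above every P21 library. The P21 libraries were spread widely, and P21 replicate 3 lay below P33 replicate 1. P33 replicate 3 was the lowest lipochondrocyte library and the only one under the adipocytes.

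Slc26a2, the sulfate transporter of the cell membrane, moved less. It gave 21.95, 21.5 and 23.3 FPKM at P8, 16.6, 14.7 and 17.1 at P10, 15.2, 21.6 and 19.2 at P13, 20.3, 12.9 and 8.47 at P21, and 10.5, 11.2 and 5.05 at P33, with 11.2, 11.5 and 8.05 in adipocytes. Neighbouring stages overlapped from P10 to P33, and the P33 and adipocyte ranges overlapped as well. The libraries that were low for Papss2, P21 replicate 3 and P33 replicate 3, were also the lowest of their groups for Slc26a2.

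Xylt1 and Xylt2, the paired xylosyltransferases that start the linker, differed in where they were expressed. Xylt1 gave 4.27, 4.43 and 5.19 FPKM at P8, 3.04, 3.42 and 3.30 at P10, 4.56, 5.09 and 3.89 at P13, 8.25, 6.48 and 5.46 at P21, and 7.95, 8.24 and 4.99 at P33, with 0.10, 0.14 and 0.11 in adipocytes. All 15 lipochondrocyte libraries were above all adipocyte libraries. Xylt2 gave 5.16, 4.48 and 4.53 FPKM at P8, 3.02, 3.40 and 5.61 at P10, 4.93, 4.40 and 4.22 at P13, 5.57, 6.67 and 6.70 at P21, and 4.64, 4.75 and 6.30 at P33, with 7.15, 8.39 and 7.12 in adipocytes. Here the adipocyte libraries were the highest in deposited FPKM, an order that did not hold by rank. Ranked among all tested genes of the same library, Xylt2 had a mean percentile of 58.8 in adipocytes. At P8, P10, P13, P21 and P33 its mean percentiles were 61.9, 62.4, 61.8, 62.3 and 58.3.

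Csgalnact1, which adds the first N-acetylgalactosamine and so commits the linker to chondroitin, stood at 12.9 ± 1.3 FPKM at P8, 8.58 ± 0.98 at P10, 13.0 ± 1.3 at P13, 9.35 ± 2.0 at P21 and 6.71 ± 1.8 at P33, with 2.37 ± 0.37 in adipocytes (SD, n = 3 each). In deposited FPKM P8 and P13 were highest and did not overlap with P10, a separation whose share over all genes is not given here. Under median-of-ratios scaling P10 differed from P8 by -0.24 and P13 from P10 by 0.30, neither called. Chsy1 and Chpf form the polymerase that lengthens the chain, Chsy1 as a synthase and Chpf as its partner. Chpf was at 64.7 ± 6.3 FPKM at P8, 66.6 ± 15 at P10, 71.6 ± 6.3 at P13, 84.3 ± 13 at P21 and 67.7 ± 21 at P33, with 16.0 ± 0.18 in adipocytes (SD, n = 3 each). P33 replicate 3 gave 91.8 FPKM of Chpf, against 56.1 and 55.3 in replicates 1 and 2. Chsy1 was far lower per length, at 2.28 ± 0.20 FPKM at P8, 1.97 ± 0.22 at P10, 1.36 ± 0.15 at P13, 1.67 ± 0.26 at P21 and 1.54 ± 0.30 at P33, with 0.747 ± 0.11 in adipocytes (SD, n = 3 each). Its exons overlap Gm26827 on the other strand, which was listed at 0 in every library. Exons of Ugdh overlap those of Gm43552 on the same strand, which is not analysed here, so the Ugdh values are uncertain to the extent that reads were split between them.

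Chst11 transfers sulfate to carbon 4 and Chst3 to carbon 6 of N-acetylgalactosamine, and both were low per length. Chst11 gave 2.83, 2.94 and 2.67 FPKM at P8, 2.25, 2.26 and 2.90 at P10, 3.34, 2.97 and 2.78 at P13, 3.02, 2.64 and 3.33 at P21, and 2.90, 3.13 and 1.81 at P33, with 1.10, 0.86 and 0.89 in adipocytes. In deposited FPKM it was level over the stages and above adipocytes in all 15 libraries. Chst3 gave 0.34, 0.25 and 0.70 FPKM at P8, 0.54, 0.37 and 0.34 at P10, 0.33, 0.14 and 0.14 at P13, 0.41, 0.35 and 0.51 at P21, and 0.67, 0.32 and 0.44 at P33, with 0.10, 0.27 and 0.10 in adipocytes. It never reached 1 FPKM and so was left out of the tests, for which a gene needed 1 FPKM or more in 3 or more libraries. The other 9 members passed that filter, as did 13815 genes in all.

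Against all tested genes of the same library, Chpf kept its place at every stage, with mean percentiles of 93.6 at P8, 93.7 at P10, 93.7 at P13, 93.4 at P21 and 92.9 at P33, and 74.0 in adipocytes. Papss2 had mean percentiles of 96.3 at P8, 95.4 at P10, 95.6 at P13, 87.7 at P21 and 80.9 at P33, and 67.2 in adipocytes. Ugdh had 93.7, 94.5 and 92.4 at P8, P10 and P13, 85.0 at P21, 78.6 at P33 and 73.9 in adipocytes. Between P8 and P33 the mean percentile also fell for Slc26a2 (86.8 to 69.0), Csgalnact1 (80.3 to 64.0), Chsy1 (45.6 to 29.1), Chst11 (50.5 to 41.1) and Xylt2 (61.9 to 58.3). For Xylt1 it rose, from 61.6 to 65.2. These ranks do not depend on how libraries are scaled against each other.

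At P33, where age and isolation match, Xylt1, Csgalnact1, Chsy1, Chpf and Chst11 were higher in lipochondrocytes than in adipocytes. The lower call of Xylt2, and whether Papss2, Ugdh and Slc26a2 were called, depended on the scaling. Of the 9 members tested, 5 were higher in lipochondrocytes and 1 was lower, beside 24.0% of all tested genes higher and 44.5% lower. Xylt1 averaged 7.06 ± 1.8 FPKM in P33 lipochondrocytes and 0.117 ± 0.021 in adipocytes (SD, n = 3 each), a log2 difference of 2.83 (SE 0.16, limma adjusted p = 4.47e-10). Differences here and below are on the log2(FPKM + 1) scale, which understates changes of low genes such as Xylt1, whose means stood in a ratio of 60.5. Chpf was higher by 1.97 (SE 0.19, limma adjusted p = 1.86e-07), Csgalnact1 by 1.18 (SE 0.17, 1.69e-05), Chst11 by 0.87 (SE 0.14, 3.88e-05) and Chsy1 by 0.54 (SE 0.11, 5.23e-04). In bulk RNA, fewer cells of a type and less RNA per cell cannot be told apart, here or in any comparison below.

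Markers of other cells differed between the same groups. All 8 endothelial markers were lower in P33 lipochondrocytes (median difference -4.29), summing to 9.40 to 12.83 FPKM there and 644.4 to 682.5 FPKM in adipocytes. All 8 macrophage markers were lower too (median -3.22), at 32.13 to 60.51 FPKM in sum in P33 lipochondrocytes and 758 to 822.6 in adipocytes. Of 10 fibroblast and perichondrium markers 4 were higher and 2 lower, or 5 and 1 under median-of-ratios scaling. Their sums were 5140 to 9278 FPKM in P33 lipochondrocytes and 405.4 to 421.3 in adipocytes. Of 6 tested skeletal muscle markers 5 were higher, with sums of 25.51 to 194.2 FPKM in P33 lipochondrocytes and 29.74 to 33.73 in adipocytes. All 8 endothelial and all 8 macrophage markers were also lower than in adipocytes at P8, P10, P13 and P21. The part of these cells in the differences from adipocytes was not tested.

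Xylt2 was lower in P33 lipochondrocytes by -0.46 (SE 0.16, limma adjusted p = 1.95e-02), close to the median of all genes in this comparison, -0.28. Under median-of-ratios scaling, which brings that median to -0.02, the Xylt2 difference was -0.16 and not called (4.30e-01). The call was also lost without P33 replicate 1 or 2 or adipocyte replicate 2 (7.12e-02, 6.53e-02 and 7.64e-02). Papss2 averaged 18.7 ± 7.6 FPKM in P33 lipochondrocytes and 11.2 ± 0.25 in adipocytes, a difference of 0.60 that was not called (SE 0.30, 8.60e-02). It was called under median-of-ratios scaling (0.91, 1.06e-02) and without P33 replicate 3 (0.98, 3.04e-03), but stood at 0.13 and was not called when libraries were rescaled without their mitochondrial genes (7.22e-01). Ugdh averaged 14.5 ± 3.2 FPKM in P33 lipochondrocytes and 15.9 ± 0.51 in adipocytes (difference -0.14, SE 0.15, 4.10e-01), and Slc26a2 averaged 8.92 ± 3.4 FPKM in P33 lipochondrocytes and 10.2 ± 1.9 in adipocytes (-0.23, SE 0.28, 4.80e-01). The sign of both turned under median-of-ratios scaling, to 0.18 for Ugdh and 0.08 for Slc26a2, while both were called lower after the rescaling without mitochondrial genes (-0.62, 2.84e-03 for Ugdh and -0.69, 4.40e-02 for Slc26a2). Whether Xylt2, Papss2, Ugdh and Slc26a2 were called at P33 thus depended on the scaling. Chst3, at 0.477 ± 0.18 FPKM in P33 lipochondrocytes and 0.157 ± 0.098 in adipocytes, did not overlap between the groups, a separation seen upward in 24.6% of tested genes. With no filter on low values it was tested and called higher there (0.35, limma adjusted p = 2.96e-02), but in 0 of the other 9 comparisons.

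At P21, also unsorted, Papss2 and Ugdh were still above adipocytes. Of the 9 tested members 7 were higher in P21 lipochondrocytes and 0 lower, beside 24.5% of all tested genes higher and 43.1% lower. The Papss2 difference was 1.60 (SE 0.30, limma adjusted p = 2.09e-04) and that of Ugdh 0.67 (SE 0.15, 9.54e-04), the second lost when libraries were rescaled without mitochondrial genes (0.28, 1.31e-01). Xylt1 (2.78), Chpf (2.32), Csgalnact1 (1.61), Chst11 (1.03) and Chsy1 (0.61) were higher as at P33. Xylt2 was not called (-0.23, 2.31e-01), stood at 0.03 under median-of-ratios scaling and was called lower when rescaled without mitochondrial genes (-0.59, 3.22e-03). Slc26a2 was not called either (0.35, 2.88e-01), nor when rescaled without mitochondrial genes, where its sign turned (-0.03). P21 lipochondrocytes and P33 adipocytes differ in age as well as in cell type.

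Papss2 and Ugdh differed from adipocytes by more at each sorted stage than at P21 or P33, though age and isolation differ here together with cell type. As deposited, the 14 listed genes of sugar and sulfate donor supply did not do so as a group. Of them 4 were higher and 5 lower at P8, 5 and 5 at P10, 5 and 5 at P13, 6 and 5 at P21 and 5 and 6 at P33. Their median differences were 0.22, -0.10, 0.20, 0.21 and -0.18 at these stages. Under median-of-ratios scaling the medians were 0.71, 0.73, 0.74, 0.42 and 0.03, larger at each sorted stage than at P21 or P33. With that scaling 8, 9, 9, 7 and 6 were higher and 3, 3, 2, 3 and 4 lower. At P13, 8 members were higher and 1 lower, beside 17.8% of all tested genes higher and 54.0% lower. Papss2 was higher by 3.33 (SE 0.30, limma adjusted p = 6.94e-08), a ratio of means of 10.9. Slc26a2 was higher by 0.81 (SE 0.28, 1.72e-02), a call lost without P13 replicate 2 or adipocyte replicate 3 (6.29e-02 and 7.49e-02) and when rescaled without mitochondrial genes (6.32e-02). At P10, 7 members were higher and 1 lower, beside 16.8% higher and 58.9% lower of all tested genes. Ugdh reached its largest difference there, 2.29 (SE 0.15, 1.45e-09), and Slc26a2 was not called (0.62, 5.45e-02), but was called under median-of-ratios scaling (1.57, 7.70e-05), with the replicate block (4.14e-02) and with these 2 groups alone modelled (7.72e-03). At P8, 8 members were higher and 1 lower, beside 19.3% higher and 52.2% lower of all tested genes. Papss2 was then higher by 3.68 (SE 0.30, 2.08e-08) and Slc26a2 by 1.06 (SE 0.28, 3.10e-03). The lower member was Xylt2 each time, by -0.63 at P13, -0.80 at P10 and -0.58 at P8, against all-gene medians of -0.56, -0.73 and -0.51. Under median-of-ratios scaling Xylt2 stood at 0.01, 0.06 and 0.02 and was not called, with its sign turned. All 5 of these comparisons use the same adipocyte libraries.

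**Figure D2:**
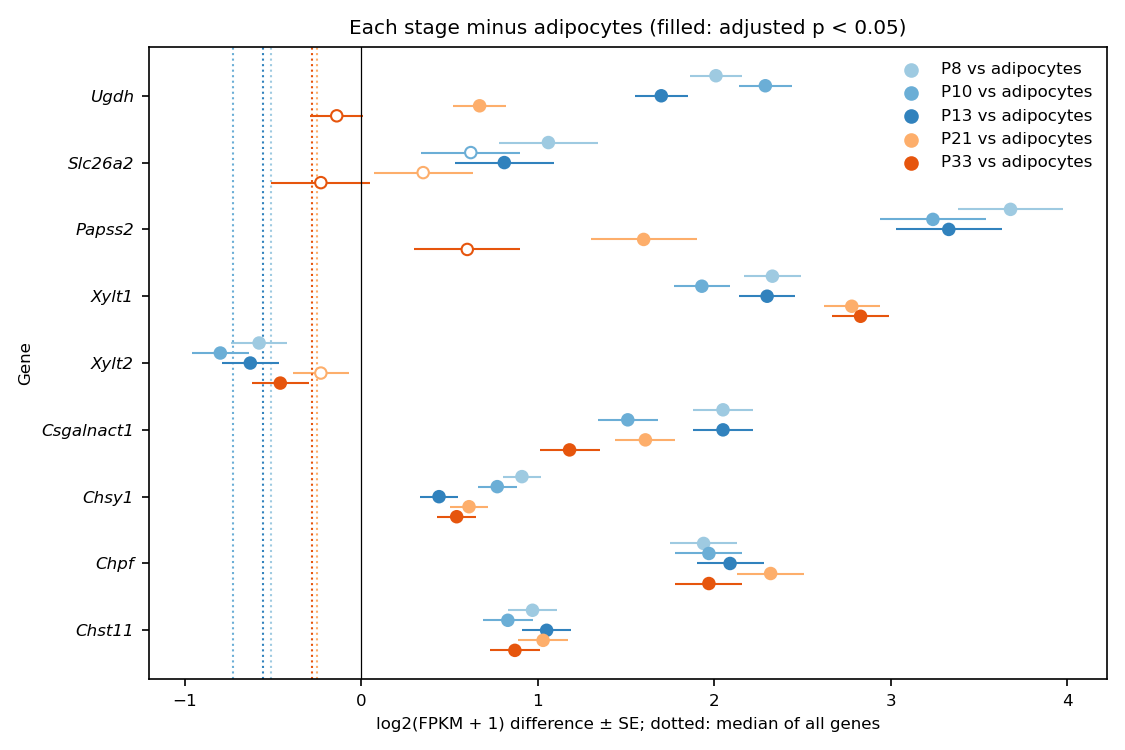
Differences of the 9 tested genes on the log2(FPKM + 1) scale (x axis), each stage minus adipocytes, with bars of 1 SE; filled points passed an adjusted p of 0.05 and dotted lines mark the median of all genes in each comparison. The points of Papss2 run from 3.68 at P8 to 0.60 at P33, while those of Chpf stay between 1.94 and 2.32.

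The balance of the paired xylosyltransferases was compared within libraries, where the scaling cancels. The log2 ratio of Xylt1 to Xylt2 was -0.03 ± 0.24 at P8, -0.25 ± 0.45 at P10, -0.01 ± 0.19 at P13, 0.08 ± 0.44 at P21 and 0.41 ± 0.65 at P33, against -6.03 ± 0.13 in adipocytes (SD, n = 3 each). P33 lipochondrocytes thus exceeded adipocytes by 6.44 (exact permutation p = 0.1, two-sided, n = 3 each, the smallest p that 3 against 3 libraries can give). P33 replicate 3 had 0.792 FPKM of Xylt1 for each FPKM of Xylt2, against 1.71 and 1.74 in replicates 1 and 2. The ratio differed by 0.34 between P33 and P21 (exact permutation p = 0.6), by 0.08 between P21 and P13 (0.8) and by 0.02 between P13 and P8 (0.9), all smaller than the spread within P33. With p at or above 0.1 in all of these, the design cannot pass the threshold. The log2 ratio of Chst3 to Chst11 was -2.85 ± 0.83 at P8, -2.59 ± 0.52 at P10, -4.02 ± 0.59 at P13, -2.83 ± 0.11 at P21 and -2.48 ± 0.70 at P33, against -2.76 ± 0.96 in adipocytes (SD, n = 3 each). P13 was the lowest group, with 0.14 FPKM of Chst3 in 2 of its libraries, and P21 exceeded P13 by 1.18 (exact permutation p = 0.1). The difference between P33 and adipocytes was 0.28 (exact permutation p = 0.9), and turned to -0.52 with a pseudocount of 1 on both genes.

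In P13 against P8, 1 of the 9 tested members was called, in the lower direction, beside 2.69% of all tested genes higher and 1.52% lower. That member was Chsy1, at 1.36 ± 0.15 FPKM at P13 and 2.28 ± 0.20 at P8 (SD, n = 3 each; difference -0.47, SE 0.11, limma adjusted p = 2.49e-02). Its call was lost without P8 replicate 2 or 3 (6.45e-02 and 9.44e-02), without P13 replicate 1, 2 or 3 (5.29e-02, 5.35e-02 and 1.16e-01), with no filter on low values (5.40e-02) and with these 2 groups alone modelled (1.07e-01). Papss2 (-0.35, SE 0.30, 6.41e-01) and Ugdh (-0.31, SE 0.15, 3.29e-01) were not called, although the groups of neither gene overlapped, a separation seen downward in 10.9% of tested genes. Chpf (0.14, SE 0.19) and Csgalnact1 (0.00, SE 0.17) were not called either.

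In P10 against P8, 0 of the 9 members were called by limma, beside 1.90% of all tested genes higher and 9.14% lower, and 3884 genes had an unadjusted p below 0.05. Csgalnact1 came nearest, at 8.58 ± 0.98 FPKM at P10 and 12.9 ± 1.3 at P8 (difference -0.54, SE 0.17, limma adjusted p = 5.21e-02), and was called with a filter on the mean of at least 1 FPKM (4.43e-02) and after rescaling without mitochondrial genes (4.57e-02). Under median-of-ratios scaling the Csgalnact1 difference was only -0.24 and not called (limma adjusted p = 4.74e-01). Ugdh was called higher under median-of-ratios scaling (0.62, 1.83e-02), against 0.28 (2.31e-01) otherwise, and Papss2 lower with these 2 groups alone modelled (-0.44, 4.87e-02). In P13 against P10, 1 member was higher and 2 lower, beside 18.6% of all tested genes higher and 4.03% lower. Ugdh was lower by -0.59 (SE 0.15, limma adjusted p = 1.06e-02) and Chsy1 by -0.33 (SE 0.11, 4.57e-02), and Csgalnact1 was higher by 0.55 (SE 0.17, 3.11e-02). The Csgalnact1 call was lost under median-of-ratios scaling (0.30, 2.07e-01), with no filter (5.93e-02) and without P10 replicate 1 or 2 or any 1 of the P13 libraries (5.24e-02 to 1.24e-01). The Chsy1 call was lost without any 1 library of the 6 (5.25e-02 to 1.56e-01), with a pseudocount of 0.1 (5.56e-02), with no filter (9.40e-02), with the replicate block (5.47e-02) and with these 2 groups alone modelled (7.04e-02). Fibroblast and perichondrium markers stood apart at P10 as well, summing to 3572 to 5007 FPKM at P8, 6381 to 8482 at P10 and 2129 to 2791 at P13, and their part in these differences was not tested.

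Papss2 and Ugdh were lower at P21 than at P13. Of the 9 tested members 1 was higher and 3 lower in P21 against P13, beside 36.0% of all tested genes higher and 7.04% lower. Papss2 averaged 38.6 ± 18 FPKM at P21 and 122 ± 12 at P13 (SD, n = 3 each; difference -1.74, SE 0.30, limma adjusted p = 3.10e-04). Ugdh averaged 26.2 ± 4.0 FPKM at P21 and 54.3 ± 7.5 at P13 (-1.02, SE 0.15, 8.01e-05). Both calls held under each alternative setting and without each library in turn, and both differences were larger under median-of-ratios scaling (-2.18 and -1.46), since the median of all genes was 0.29 as deposited and 0.01 after that scaling. All genes then split into 2212 higher and 2214 lower, against 4977 and 972 before it, and the members into 0 higher and 4 lower.

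Csgalnact1 was lower at P21 by -0.45 (SE 0.17, limma adjusted p = 4.51e-02), and this call was lost with a pseudocount of 0.1 (5.46e-02), with no filter (7.26e-02), with the replicate block (5.29e-02), with these 2 groups alone modelled (8.00e-02) and without any 1 P13 library or P21 replicate 2 or 3 (6.00e-02 to 1.62e-01). Under median-of-ratios scaling it was lower by -0.86 (4.93e-04). Xylt1 was higher at P21 by 0.48 (SE 0.16, 2.75e-02), but stood at 0.10 and was not called under median-of-ratios scaling (6.69e-01), nor after rescaling without mitochondrial genes (0.30, 2.11e-01), with these 2 groups alone modelled (7.47e-02), or without P13 replicate 1 or 3 or P21 replicate 1 or 2 (5.48e-02 to 1.26e-01). Slc26a2 was not called (-0.46, SE 0.28, 1.99e-01) but was lower under median-of-ratios scaling (-0.89, 1.80e-02) and without P21 replicate 1 (-0.76, 3.71e-02). Xylt2 was not called (0.40, 5.66e-02), except with these 2 groups alone modelled (3.71e-02). Chpf (0.23), Chst11 (-0.01) and Chsy1 (0.17) were not called. Age and isolation both change in this step, from a TdTomato sort to a floating layer, and cannot be told apart. The summed fibroblast and perichondrium markers were 5261 to 9708 FPKM at P21 against 2129 to 2791 at P13, and the cartilage sum was 3650 to 4035 at P21 against 9400 to 11290 at P13. All 6 tested skeletal muscle markers were higher at P21 (median 2.61), with sums of 74.63 to 509.6 FPKM at P21 against 22.57 to 36.05 at P13. Of 8 macrophage markers 6 were higher (median 1.02), or 5 under median-of-ratios scaling, with sums of 17.32 to 27.39 FPKM at P21 against 3.83 to 4.45 at P13. Of 8 adipocyte markers 6 were higher, with sums of 19.57 to 26.42 FPKM at P21 against 4.91 to 5.54 at P13, and both tested keratinocyte markers were higher. Under median-of-ratios scaling 4 adipocyte markers were higher and 1 lower, and 1 keratinocyte marker was higher. The part of these markers' cells in the differences was not tested.

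Between P33 and P21, both unsorted, Ugdh and Papss2 were lower again. In P33 against P21, 0 of the 9 tested members were higher and 2 were lower, beside 2.87% of all tested genes higher and 7.17% lower. Ugdh averaged 14.5 ± 3.2 FPKM at P33 and 26.2 ± 4.0 at P21 (SD, n = 3 each; difference -0.82, SE 0.15, limma adjusted p = 2.70e-03), and its call was lost with these 2 groups alone modelled (1.34e-01) and under no other alternative. Papss2 averaged 18.7 ± 7.6 FPKM at P33 and 38.6 ± 18 at P21 (-1.0, SE 0.30, 4.56e-02). The Papss2 groups overlapped, and its call was lost without P33 replicate 3 (-0.62, 1.26e-01), without P21 replicate 1 (-0.66, 1.69e-01) or 2 (-1.0, 1.09e-01), with a pseudocount of 0.1 (5.19e-02), with no filter (7.68e-02), under median-of-ratios scaling (5.03e-02) and with these 2 groups alone modelled (3.65e-01). Slc26a2 (-0.58, SE 0.28, 2.33e-01), Csgalnact1 (-0.43, SE 0.17, 1.27e-01) and Chpf (-0.34, SE 0.19, 3.04e-01) were not called. Chpf was called lower without P33 replicate 3 (-0.58, 3.05e-02), and Csgalnact1 without P33 replicate 1 (-0.62, 3.09e-02). In the same comparison 5 of 7 tested cartilage markers were lower (median -1.25), with sums of 1829 to 2860 FPKM at P33 against 3650 to 4035 at P21. Of 8 macrophage markers 5 were higher (median 0.62), or 4 under median-of-ratios scaling, with sums of 32.13 to 60.51 FPKM at P33 against 17.32 to 27.39 at P21. The part of either in the member differences was not tested.

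**Figure D3:**
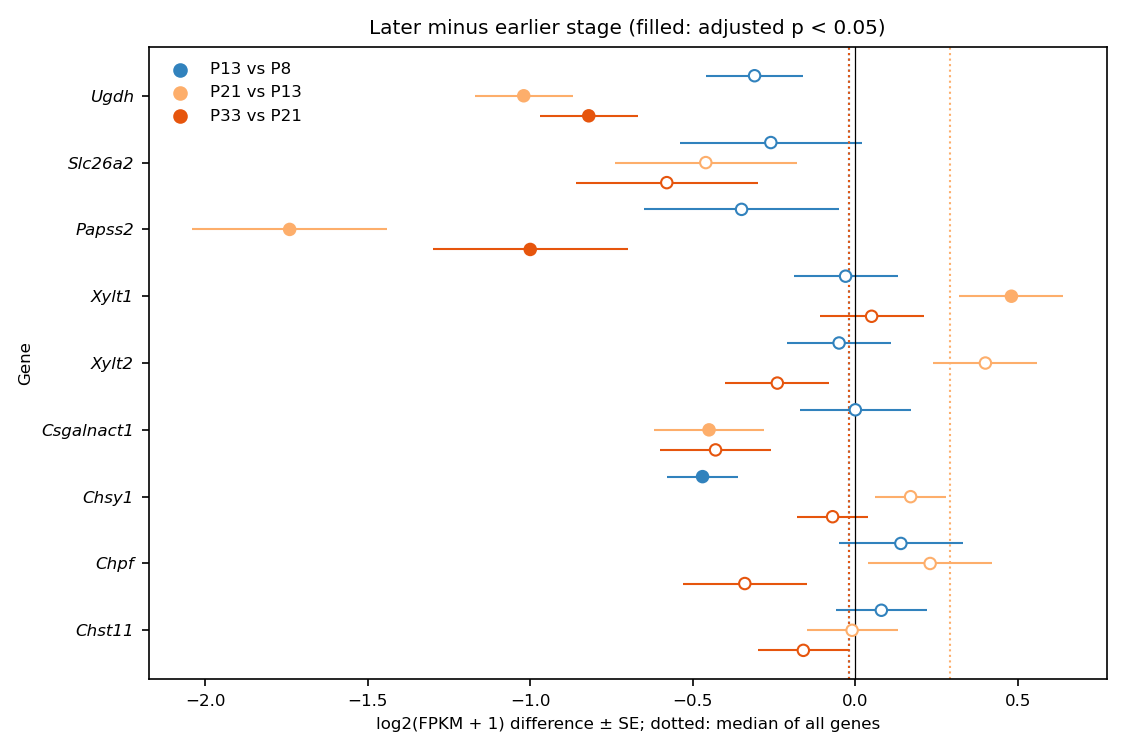
Differences of the 9 tested genes on the log2(FPKM + 1) scale (x axis), later minus earlier stage, with bars of 1 SE; filled points passed an adjusted p of 0.05 and dotted lines mark the median of all genes in each comparison. Papss2 and Ugdh are filled in both late steps, at -1.74 and -1.02 for P21 against P13 and -1.0 and -0.82 for P33 against P21.

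P33 replicate 3 and P21 replicate 3, the libraries with the lowest Papss2 and Slc26a2 of their groups, had the highest Chpf (91.8 and 96.3 FPKM), the highest Xylt2 (6.30 and 6.70 FPKM) and the lowest Xylt1 (4.99 and 5.46 FPKM). Their fibroblast and perichondrium sums were 9278 and 9708 FPKM, the highest of their groups, and their skeletal muscle sums 194 and 509.6 FPKM, against 25.5 and 50.5 FPKM in the other P33 libraries and 286 and 74.6 FPKM in the other P21 libraries. The part of other cells in these values was not tested.

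The other genes of sulfate and sugar supply show how far Papss2 and Ugdh speak for that step. Of 14 listed donor genes, all of which passed the filter, 5 were higher and 6 lower in P33 lipochondrocytes than in adipocytes (median -0.18, beside -0.28 for all genes). Under median-of-ratios scaling 6 were higher and 4 lower. Ugp2, which makes the UDP-glucose that Ugdh uses, was lower by -2.56 (SE 0.18, limma adjusted p = 5.05e-09), at 9.10 ± 1.9 FPKM in P33 lipochondrocytes and 57.8 ± 3.4 in adipocytes (SD, n = 3 each). Slc35b2, which carries PAPS into the Golgi, was higher by 1.04 (SE 0.11, 6.60e-07), at 39.5 ± 3.6 FPKM in P33 lipochondrocytes and 18.6 ± 1.4 in adipocytes. Uap1, which makes UDP-N-acetylglucosamine, was lower by -0.96 (SE 0.12, 4.81e-06).

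Over the stages Papss1, the more widely expressed PAPS synthase, was at 52.4 ± 6.4 FPKM at P8, 42.2 ± 4.7 at P10, 37.4 ± 2.5 at P13, 23.7 ± 6.1 at P21 and 22.04 ± 0.69 at P33, with 19.1 ± 0.45 in adipocytes (SD, n = 3 each). Papss2 exceeded it in every sorted library, while at P33 it stood at 23.2, 23.0 and 9.91 FPKM in replicates 1, 2 and 3, against 21.37 to 22.75 FPKM of Papss1. In P21 against P13 Papss1 was lower by -0.67 (SE 0.15, limma adjusted p = 2.18e-03). Of the 14 donor genes 3 were higher and 3 lower in that comparison (median 0.08, beside 0.29 for all genes), and 0 higher and 5 lower under median-of-ratios scaling. Bpnt1, which clears the by-product of PAPS use, was higher by 0.83 (SE 0.26, 1.83e-02) and Uxs1, which turns UDP-glucuronic acid into UDP-xylose, by 0.69 (SE 0.18, 7.28e-03), but neither was called under median-of-ratios scaling (0.42 and 0.27). In P33 against P21, 0 donor genes were higher and 3 lower (median -0.08, beside -0.02), and so they were under median-of-ratios scaling. Slc35b2 was lower by -0.91 (SE 0.11, limma adjusted p = 9.20e-05) and Ugp2 by -0.60 (SE 0.18, 4.58e-02). At P10 Uap1 stood at 48.0 ± 1.7 FPKM, against 22.6 ± 1.6 at P8 (1.06, SE 0.12, 1.02e-04), and at P13 it was lower than at P10 by -1.07 (SE 0.12, 3.58e-05).

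**Figure D4:**
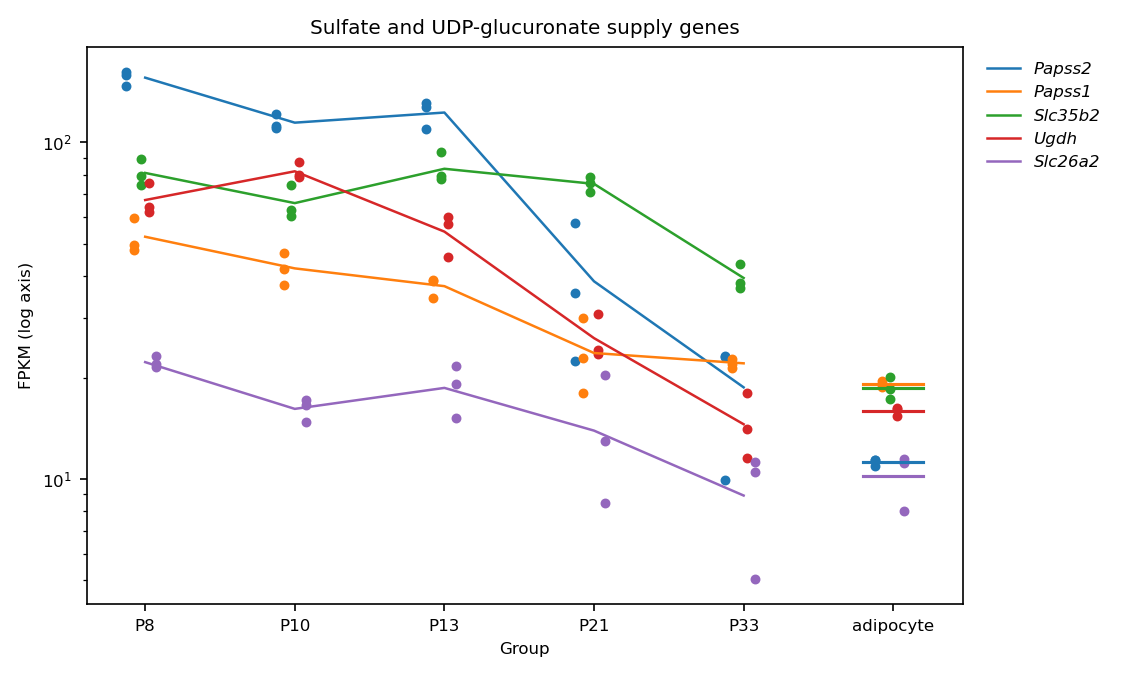
FPKM on a log axis of 5 sulfate and UDP-glucuronate supply genes over the stages and in adipocytes; points are libraries, and lines join or mark group means of 3 libraries. Papss2 is above Papss1 at P8 (156 and 52.4 FPKM) and below it in the P33 means (18.7 and 22.04 FPKM). In deposited FPKM Slc35b2 stays near its P8 mean up to P21. Under median-of-ratios scaling it was lower at P21 than at P13 (-0.59, limma adjusted p = 9.51e-04).

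Among the other 16 chondroitin and dermatan sulfate enzymes, 15 were tested. In P33 lipochondrocytes against adipocytes 7 were higher and 3 lower (median 0.28, beside -0.28 for all genes), or 11 and 2 under median-of-ratios scaling. Pxylp1, the phosphatase that removes the linker phosphate, was higher by 2.37 (SE 0.14, limma adjusted p = 4.65e-10), Chst15, which adds a second sulfate to 4-sulfated units, was lower by -1.50 (SE 0.12, 2.50e-08), and Chst7, a 6-O-sulfotransferase, was lower by -0.97 (SE 0.17, 1.16e-04). Chst12, a second 4-O-sulfotransferase, was the most abundant of the 6 sulfotransferases plotted in every group. It averaged 26.4 ± 2.6 FPKM at P8, 18.8 ± 2.4 at P10, 39.9 ± 2.9 at P13, 69.3 ± 7.0 at P21 and 50.2 ± 7.2 at P33, with 30.2 ± 2.7 in adipocytes (SD, n = 3 each), while the member with the same role, Chst11, stayed at 2.47 to 3.03 FPKM at every stage. Chst12 was the 1 gene of this list called in P13 against P8 (0.58, SE 0.13, 1.72e-02), and it was lower in P10 against P8 (-0.47, 3.17e-02, lost under median-of-ratios scaling) and higher in P13 against P10 (1.05, 6.34e-05).

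In P21 against P13, 6 of the 15 were higher and 2 lower (median 0.26, beside 0.29), but 1 higher and 3 lower under median-of-ratios scaling. Chst7 averaged 1.61 ± 0.17 FPKM at P21 and 5.30 ± 1.5 at P13 (-1.24, SE 0.17, limma adjusted p = 4.34e-05), and Chst3, which has the same role, averaged 0.423 FPKM at P21 and 0.203 at P13. Ust, which sulfates uronic acid at carbon 2, was higher by 0.87 (SE 0.16, 6.98e-04), and Chst12 by 0.78 (SE 0.13, 2.29e-04), the second lost under median-of-ratios scaling (0.34, 7.82e-02). In P33 against P21, 0 were higher and 5 lower (median -0.30, beside -0.02), or 0 and 3 under median-of-ratios scaling. Fam20b, the kinase that phosphorylates the linker xylose, was lower by -0.89 (SE 0.14, 8.34e-04), Dsel, a dermatan epimerase, by -0.59 (SE 0.17, 4.07e-02) and Chst12 by -0.46 (SE 0.13, 3.34e-02), the last lost under median-of-ratios scaling (8.21e-02). Chst13 was listed at 0 in all lipochondrocyte libraries and at 0.79 ± 0.14 FPKM in adipocytes.

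**Figure D5:**
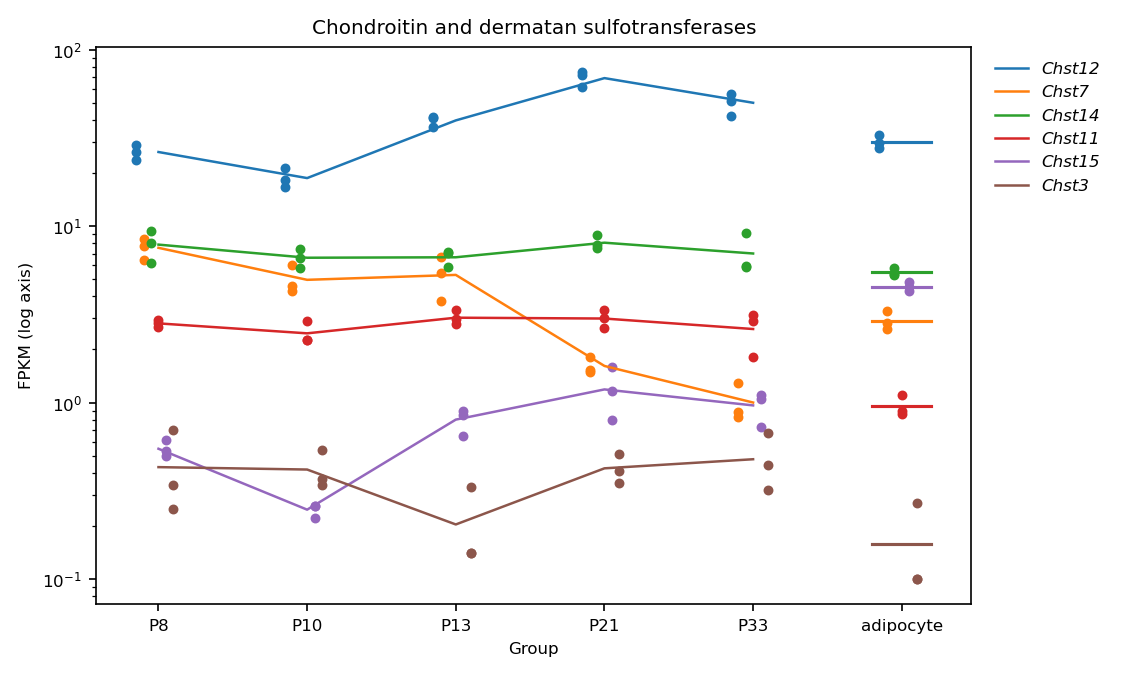
FPKM on a log axis of 6 chondroitin and dermatan sulfotransferases over the stages and in adipocytes; points are libraries, and lines join or mark group means of 3 libraries. Chst12 is the top line in every group, at 69.3 FPKM at P21, Chst7 runs from 7.55 FPKM at P8 to 1.00 at P33, and Chst3 stays below 1 FPKM throughout.

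The genes of the core proteins that carry these chains differed between the cell types in both directions. Of 13 core protein genes tested, 7 were higher and 3 lower in P33 lipochondrocytes than in adipocytes under either scaling (median 0.57 as deposited, beside -0.28). Bgn, a small leucine-rich proteoglycan, was higher by 7.83 (SE 0.10, limma adjusted p = 1.46e-17), at 4726 ± 186 FPKM in P33 lipochondrocytes against 19.7 ± 1.4 in adipocytes. Acan, which encodes aggrecan, stood at 98.4 ± 41 FPKM in P33 lipochondrocytes and was listed at 0 in all adipocyte libraries (6.53, SE 0.39, 7.92e-10), and Col9a2, a chain of the collagen that can carry chondroitin sulfate, was at 62.1 ± 23 FPKM in P33 lipochondrocytes against values listed at 0 in adipocytes (5.90, SE 0.28, 4.92e-11). Over the stages Acan averaged 160.3 ± 106 FPKM at P8, 185 ± 33 at P10, 129.6 ± 22 at P13, 206 ± 66 at P21 and 98.4 ± 41 at P33 (SD, n = 3 each). In P21 against P13, where Papss2 was lower, Acan was not called (0.62, SE 0.39, limma adjusted p = 2.20e-01). Under median-of-ratios scaling its difference was 0.17 and not called. Whether Acan and Papss2 differ in course was not tested.

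Core protein genes moved in both directions in the late steps. In P21 against P13, 3 were higher and 5 lower (median 0.02, beside 0.29), or 3 and 6 under median-of-ratios scaling. They were led by Dcn, decorin (2.98, SE 0.27, limma adjusted p = 9.32e-07), Epyc, epiphycan (-2.25, SE 0.13, 7.65e-09) and Col9a2 (-1.79, SE 0.28, 1.57e-04). In P33 against P21, 1 was higher and 3 lower (median -0.24, beside -0.02), or 1 and 2 under median-of-ratios scaling. Col9a2 was lower by -2.61 (SE 0.28, 3.17e-05), Dcn higher by 1.31 (SE 0.27, 6.34e-03) and Bgn lower by -0.47 (SE 0.10, 7.06e-03). In P13 against P8, Prg4 was higher (1.32, 2.98e-02) and Vcan (-1.04, 1.38e-02) and Ptprz1 (-0.85, 3.20e-04) were lower, of 2 called in each direction. In P10 against P8, 2 were higher, Dcn (2.04, 4.18e-04) and Cd44 (0.89, 1.88e-03), and Epyc was lower (-1.05, 2.16e-04). Under median-of-ratios scaling 3 were higher and 1 lower there.

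Heparan sulfate synthesis starts on the same linker and draws on the same PAPS and UDP-glucuronic acid. Of 15 such genes tested, 5 were higher and 2 lower in P33 lipochondrocytes than in adipocytes (median 0.14, beside -0.28), or 8 and 2 under median-of-ratios scaling. Extl1, a glycosyltransferase of the exostosin family, was higher by 3.55 (SE 0.23, limma adjusted p = 2.29e-09) and Hs3st3b1, a 3-O-sulfotransferase, by 2.03 (SE 0.18, 7.78e-08), and Sulf2, which removes 6-O-sulfate outside the cell, was lower by -2.98 (SE 0.31, 5.19e-07). In P13 against P8, limma called 0 of these 15 genes and 0 of the 14 donor genes, and 2190 of all tested genes had an unadjusted p below 0.05. In P21 against P13, 7 of the 15 were higher and 1 lower (median 0.47, beside 0.29), or 3 and 2 under median-of-ratios scaling. In P33 against P21, 0 were higher and 4 lower under either scaling (median -0.14 as deposited, beside -0.02). Among the lower genes were Sulf2 (-1.13, 3.15e-02), Extl1 (-0.91, 2.28e-02) and Glce (-0.69, 7.84e-03), the epimerase of the chain.

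Keratan sulfate and hyaluronan genes also differed between the cell types in both directions. All 6 tested were called in P33 lipochondrocytes against adipocytes, 2 higher and 4 lower (median -0.61, beside -0.28), or 2 and 3 under median-of-ratios scaling. Chst1, a keratan sulfate sulfotransferase, stood at 0.46 ± 0.17 FPKM in P33 lipochondrocytes and 85.6 ± 4.2 in adipocytes (SD, n = 3 each; -5.90, SE 0.16, limma adjusted p = 4.79e-14). Chst5, a relative of Chst1, was at 4.11 ± 1.3 FPKM in P33 lipochondrocytes and listed at 0 in all adipocyte libraries (2.32, SE 0.18, 1.29e-08), and Chst2 was at 5.17 ± 1.3 FPKM in P33 lipochondrocytes against 0.47 ± 0.08 in adipocytes (2.04, SE 0.37, 1.54e-04). Chst2 averaged 7.22 ± 3.7 FPKM at P21 and 20.8 ± 2.0 at P13 (-1.50, SE 0.37, 4.62e-03). Of the 15 tested genes for breakdown of these chains, 4 were higher and 9 lower in P33 lipochondrocytes than in adipocytes (median -0.35, beside -0.28), or 4 and 6 under median-of-ratios scaling. In P21 against P13, 12 of the breakdown genes were higher and 0 lower (median 0.46, beside 0.29), or 5 and 0 under median-of-ratios scaling. They were led by Hgsnat (1.03, SE 0.11, 6.31e-06), Hyal2 (0.84, SE 0.13, 1.09e-04) and Hyal1 (0.74, SE 0.13, 2.93e-04). In P33 against P21 1 breakdown gene was higher and 2 were lower, Hexa by -1.40 (SE 0.11, 2.80e-06) and Gusb by -0.77 (SE 0.11, 3.27e-04). Under median-of-ratios scaling 2 were higher and 2 lower.

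For the 3 members with the widest range over the stages, the genes most like them were found by Pearson's r of log2(FPKM + 1) over the 15 lipochondrocyte libraries, among 3544 genes averaging at least 10 FPKM there. These values are descriptions, since libraries of a stage share their age and isolation. Papss2 was most like Tmem263 (r = 0.984), Cav2 (0.982) and Hapln1 (0.981), the last being the link protein that ties aggrecan to hyaluronan. Within the 9 sorted libraries alone these values were 0.62, 0.73 and 0.59, and within the 6 unsorted ones 0.95, 0.90 and 0.98. Hapln1 averaged 49.1 FPKM at P8, 44.6 at P10, 48.7 at P13, 21.9 at P21 and 8.78 at P33, against 0.01 in adipocytes. Cav2, a caveolae protein, averaged 15.5 FPKM at P33 and 229.7 in adipocytes. Ugdh was most like Ywhaz (0.983), Atf4 (0.983) and Sf3b1 (0.982), with r of 0.92, 0.91 and 0.89 in the sorted and 0.96, 0.92 and 0.95 in the unsorted libraries. Atf4, a transcription factor of the stress response, averaged 485.8 FPKM at P8, 732.2 at P10, 376.5 at P13, 179.7 at P21 and 76.85 at P33, against 59.5 in adipocytes. Slc26a2 was most like Scin (0.961), Deb1 (0.946) and Fgfr3 (0.936), with r of 0.90, 0.82 and 0.47 in the sorted and 0.97, 0.94 and 0.99 in the unsorted libraries. Fgfr3, a growth factor receptor of chondrocytes, averaged 201.8 FPKM at P8, 182.9 at P10, 187.2 at P13, 130.5 at P21 and 86.3 at P33, against 0.96 in adipocytes.

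The genes lie on several chromosomes of GRCm38: Chpf (ENSMUSG00000032997.16) at chr1:75474569-75479307, Ugdh (ENSMUSG00000029201.14) at chr5:65413221-65435949, Chsy1 (ENSMUSG00000032640.10) at chr7:66109515-66173798, Xylt1 (ENSMUSG00000030657.11) at chr7:117380979-117673580 and Csgalnact1 (ENSMUSG00000036356.14) at chr8:68356781-68735146. Chst3 (ENSMUSG00000057337.13) lies at chr10:60181532-60219260, Chst11 (ENSMUSG00000034612.7) at chr10:82985498-83195900, Xylt2 (ENSMUSG00000020868.15) at chr11:94663851-94677515 and Papss2 (ENSMUSG00000024899.6) at chr19:32595790-32667187. Each gene has 1 value per library in the table, so that the 2 Papss2 starts cannot be told apart.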

How the data were processed

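RNA sequencing covered 18 libraries in 6 groups, with groups and replicate numbers taken from the labels. The authors deposited FPKM, with 1 value for each of 46983 genes and each library, rounded to 2 decimals. Reads were aligned to mm10 with STAR 2.4.2a, per the submitters' processing notes. How FPKM were computed, and from which annotation, is not given in the sources used here. The authors also deposited, per the file headers, the count of total reads and the percent aligned in each library. Counts by gene are lacking, so counting error cannot be given, and listing at 0 does not show absence. Of the columns of per-library values, 0 were left unused, and 0 pairs of libraries were identical.

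FPKM were changed to log2(FPKM + 1), and the 13815 genes reaching 1 FPKM in 3 or more libraries were fitted with 6 group means (limma 3.58.1, R 4.3.3, mean-variance trend). The 10 comparisons were two-sided, with Benjamini-Hochberg adjustment over all tested genes and a threshold of 0.05. The fit was first tested on simulated data. Within-library ratios were compared by exact permutation tests over libraries, 8 in all and unadjusted. Alternatives were pseudocounts of 0.1 and 0.5, no filter, a filter on the mean, median-of-ratios scaling, rescaling without mitochondrial genes, no trend, a replicate block, the 2 compared groups alone, and each library left out in turn. Coordinates come from GENCODE M21 (GRCm38), which holds 98.9% of the table's identifiers. Figures used matplotlib 3.10.9 (Python 3.11.15).

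The members and the lists (6 pathway lists with 90 genes and 7 marker lists) were chosen with earlier results of these data known. List counts cover genes that passed the filter, and a gene that passed through 1 group alone had to differ there. Named by rule were all members, up to 3 called genes of each list with the largest change in a comparison (1 of them is not reported here), 4 marker genes, and the 3 genes most like each of 3 members. Chst12, Papss1, Slc35b2, Chst13 and the other plotted sulfotransferases were also followed over all groups, a choice made after their values were seen. Of 158 list entries, 157 matched by symbol and 1 by gene identifier.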

Additional observations from a re-analysis of the deposited data

How the results depend on the processing

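Of the member differences recomputed under alternative settings, 754 kept direction and side of the threshold, 23 lost a call, 13 gained one and 20 changed sign. With each library left out in turn the numbers were 486, 33, 4 and 17. Each change of sign was of a difference that was not called under the alternative. Under median-of-ratios scaling the signs turned for Slc26a2 (0.08) and Ugdh (0.18) in P33 against adipocytes, for Xylt2 at P21 (0.03), P13 (0.01), P10 (0.06) and P8 (0.02) against adipocytes, for Xylt2 (0.04), Chsy1 (0.09) and Chst11 (0.11) in P10 against P8, for Xylt2 (-0.05), Chpf (-0.16), Slc26a2 (-0.08) and Papss2 (-0.18) in P13 against P10, for Xylt1 in P13 against P8 (0.01), and for Chsy1 (-0.10) and Chpf (-0.22) in P21 against P13. Rescaled without mitochondrial genes, they turned for Slc26a2 in P21 against adipocytes (-0.03), Chpf in P10 against P8 (-0.01), Csgalnact1 in P13 against P8 (-0.04) and Xylt1 in P33 against P21 (-0.03). A pseudocount of 1 turned the Chst3 to Chst11 ratio of P33 against adipocytes to -0.52. The cause was not tested.

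Members called in P10 against P8 numbered 1 with a filter on the mean, under median-of-ratios scaling, without mitochondrial genes and with the 2 groups alone, against 0. With no filter they numbered 1 in P13 against P10, against 3, and 0 in P13 against P8, against 1, as with the 2 groups alone (0). In P33 against P21 they numbered 1 with a pseudocount of 0.1, with no filter and under median-of-ratios scaling, and 0 with the 2 groups alone, against 2. Calls over all genes in P10 against P8 were 985 with no filter, 622 under median-of-ratios scaling and 351 with the 2 groups alone, against 1525. With the 2 groups alone they were 347 in P13 against P8, against 581, and 126 in P33 against P21, against 1388. The split into higher and lower under median-of-ratios scaling was 4188 and 4825 for P33, 4105 and 4768 for P21, 4148 and 4797 for P13, 4414 and 5103 for P10 and 4242 and 4977 for P8 against adipocytes, 497 and 125 in P10 against P8, 1125 and 1183 in P13 against P10, and 535 and 247 in P13 against P8.

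With each library left out in turn, calls over all genes ran from 520 to 1493 in P10 against P8, 1938 to 2830 in P13 against P10, 339 to 509 in P13 against P8 and 906 to 1802 in P33 against P21. The lowest counts came without P10 replicate 1, P10 replicate 1, P13 replicate 3 and P21 replicate 2. Members called ran from 1 to 2 in P13 against P10, 0 to 1 in P13 against P8, 2 to 4 in P21 against P13 and 1 to 3 in P33 against P21. Ratio differences ran from -0.07 to 0.83 for Chst3 to Chst11 in P33 against adipocytes, and for Xylt1 to Xylt2 from -0.10 to 0.14 in P13 against P8 and -0.16 to 0.27 in P21 against P13. Uncalled differences changed sign within -0.41 to 0.09 for Slc26a2 in P33 against adipocytes, -0.15 to 0.15 and 0 to 0.29 for Chpf in P10 against P8 and P13 against P10, -0.11 to 0.05 for Xylt1, -0.11 to 0 for Xylt2 and -0.07 to 0.06 for Csgalnact1 in P13 against P8, -0.07 to 0.05 for Chst11 in P21 against P13, and -0.07 to 0.25 for Xylt1, -0.14 to 0.03 for Chsy1 and -0.27 to 0.01 for Chst11 in P33 against P21.

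Deviations of libraries with the same replicate number had r of -0.168 to 0.306 (median 0.025, 45 pairs). With different numbers r was -0.34 to 0.306 (median -0.006, 90 pairs). Among lipochondrocyte libraries of replicate 3, r was 0.306 for P10 and P33, 0.206 for P21 and P33, 0.182 for P10 and P13, and -0.029 for P8 and P21. Whether libraries of a number share a batch was not tested. With the replicate block, 6105 genes were called in P21 against P13 and 9571 in P33 against adipocytes, against 5949 and 9466, and members called numbered 6, 7, 9, 9 and 9 for P33, P21, P13, P10 and P8 against adipocytes, 0 in P10 against P8, 2 in P13 against P10, 1 in P13 against P8, 3 in P21 against P13 and 2 in P33 against P21. The block changed the calls of Slc26a2 in P10 against adipocytes (4.14e-02), Chsy1 in P13 against P10 (5.47e-02) and Csgalnact1 in P21 against P13 (5.29e-02). Without counts per gene, depth cannot be set beside the low levels of Chst3 and Chsy1.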
